A study of Mus musculus with 8 samples.

Results

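Transglutaminases are calcium-dependent enzymes that join the side chain of a glutamine in one protein to a lysine in another, or to a small amine, and so glue proteins into networks that resist proteases. The family was taken here as 8 mouse genes, Tgm1 to Tgm7 and F13a1, found by exact gene symbol in the count table. All 8 were present once each among 55536 genes. Tgm1, Tgm3 and Tgm5 build the cornified envelope under the membrane of keratinocytes, Tgm2 works in many tissues at the cell surface and inside cells, and F13a1 encodes the A subunit of clotting factor XIII, which cross-links fibrin. Insulin-producing cells are not a classical site of the epidermal enzymes.

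The cells were MIN6, an established mouse β-cell line, labelled wild type. For 48 h, control cells carried pcDNA 3, an empty vector, whereas pGloMyc-Klf4 was given to the remaining cultures to express Klf4, a zinc-finger transcription factor of the Krüppel-like family. A lipid reagent carried the plasmids, whose names differ in the backbone, so that effects of Klf4 and of the backbone cannot be told apart. Each group had 4 libraries of polyadenylated RNA, replicates 1 and 2 in batch 1 and replicates 3 and 4 in batch 2. The labels call the replicates biological but do not say that they were separate cultures, so p-values measure the spread between these libraries. The extraction text speaks of islets, whereas every title names the cell line.

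Total counts lay between 47017647 and 49504167 in control libraries and between 45417853 and 52731176 in Klf4 libraries (two-sided exact permutation p = 0.229). Klf4 itself was at 36.1 to 42.8 counts per 1000000 (CPM, scaled with TMM factors) in control and at 4532.2 to 5852.9 CPM in Klf4 libraries. Of 10 β-cell markers all were counted, including Ins1, Ins2 and Pdx1, and their summed level was 25332.9 to 32146.6 CPM in control and 23759.0 to 32226.8 CPM in Klf4 libraries. Across all 18266 genes that passed the filter on low counts, edgeR's quasi-likelihood test with a batch term called 36.6% changed at a Benjamini-Hochberg adjusted p under 0.05, 21.1% higher and 15.5% lower. Of the calls 57.7% were higher, and 72.8% were with scaling factors taken from abundant genes alone. In bulk RNA, fewer cells with a transcript and less of it per cell cannot be told apart.

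Promoter windows are shown for the epidermal enzymes, because 2 of these 3 genes rose and the other did not pass the test. RefSeq promoter windows on GRCm38.p6 matched 7 of the 8 members, all but Tgm2, with 10 windows in all. The 250 bases before a RefSeq start are printed 5′ to 3′ on the gene's strand, and capitals mark every match, on either strand, to CACCC, GGGNGNGGC or GGGCGG, the core and GC-rich forms of the Krüppel-like and Sp factor site.
Tgm1 (chr14:55713493-55713742, minus strand): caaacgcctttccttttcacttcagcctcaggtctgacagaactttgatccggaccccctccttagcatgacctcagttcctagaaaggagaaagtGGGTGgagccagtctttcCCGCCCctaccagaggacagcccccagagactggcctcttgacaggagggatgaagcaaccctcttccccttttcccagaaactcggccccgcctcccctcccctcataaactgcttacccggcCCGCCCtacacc
Tgm5 (chr2:121085842-121086091, minus strand): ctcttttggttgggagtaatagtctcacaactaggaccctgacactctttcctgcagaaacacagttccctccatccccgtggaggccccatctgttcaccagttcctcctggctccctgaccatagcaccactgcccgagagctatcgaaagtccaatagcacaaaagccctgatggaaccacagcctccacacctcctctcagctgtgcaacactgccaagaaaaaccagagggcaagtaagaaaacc
Tgm3 (chr2:130012090-130012339, plus strand): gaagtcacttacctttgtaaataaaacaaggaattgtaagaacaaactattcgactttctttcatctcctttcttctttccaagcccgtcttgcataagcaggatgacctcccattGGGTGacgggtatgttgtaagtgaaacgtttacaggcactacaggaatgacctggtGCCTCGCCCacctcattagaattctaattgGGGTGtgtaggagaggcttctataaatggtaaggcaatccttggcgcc

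The printed Tgm1 window lies before a RefSeq start that is inside the longer GENCODE gene span given with its values. It held 1 match to CACCC, first base at -154 from the start, and 2 matches to GGGCGG, at -136 and -12. A second Tgm1 window (55713039 to 55713338, not printed) had CACCC at -10 and no match to the other motifs searched. The Tgm3 window held CACCC matches at -134 and -48, a GGGNGNGGC match at -78, spelled GCCTCGCCC on the printed strand, and TATAA at -28. The Tgm4 window, of the prostate enzyme, also had GCCTCGCCC at -78, with TATAA at -30. No motif searched, TGANTCA and TATAA included, matched in the 300-base window of Tgm5. Such matches are common: among 32851 windows of 300 bases (250 before and 50 after a start), 57.5% held CACCC, 25.8% GGGNGNGGC, 35.7% GGGCGG, 7.81% TGANTCA and 24.9% TATAA. Matches to different motifs can overlap, as CACCC and GGGNGNGGC do in the Tgm7 window. Guanine and cytosine made up 58.0% of the printed Tgm1 window, 52.8% of Tgm5 and 44.0% of Tgm3.

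Of the 8 members, 5 passed the filter and were tested, and 3 fell below it. Tgm1 would not have passed on its control libraries alone, since 2 of them were under the minimum. Tgm1, Tgm2 and Tgm5 rose, against 21.1% of all tested genes called higher. F13a1 was called lower by a small margin, against 15.5% of all tested genes, and Tgm3 did not pass the test. Tgm4, Tgm6 and Tgm7 had at most 22 counts in any library and are given by their counts. The groups did not overlap in CPM for Tgm1, Tgm2 and Tgm5 among the tested members. Over all tested genes, 17.2% had every Klf4 library above every control library and 8.93% the reverse.

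**Figure D1:**
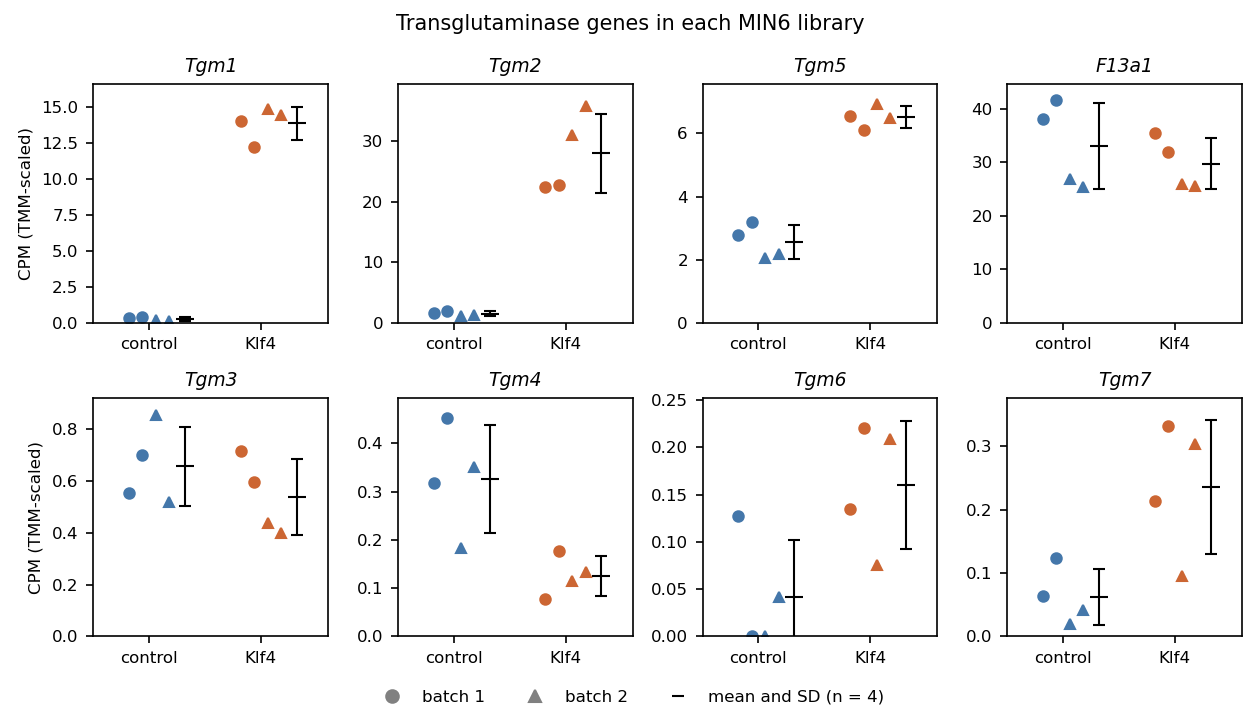
TMM-scaled CPM (vertical axes, each from 0) of the 8 members in each library, with circles for batch 1, triangles for batch 2, and the mean and SD of 4 libraries beside them; the lower SD bar of Tgm6 in control is cut at 0. Tgm1, Tgm2 and Tgm5 are higher in every Klf4 library than in any control library, F13a1 follows the batch in both groups, and Tgm4, Tgm6 and Tgm7 stay under 0.5 CPM.

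Tgm1 encodes the membrane-anchored keratinocyte transglutaminase, whose loss causes a form of ichthyosis in people. It had 16, 19, 10 and 8 counts in control replicates 1 to 4 and 721, 554, 780 and 759 counts in Klf4 replicates 1 to 4. The levels were 0.34, 0.39, 0.203 and 0.166 CPM in control and 14.0, 12.2, 14.8 and 14.4 CPM in Klf4 libraries. Control values were lower in batch 2 than in batch 1, and the Klf4 values lay close together. The means were 0.275 ± 0.107 and 13.9 ± 1.14 CPM (SD, n = 4), a 50.1-fold rise by edgeR (95% interval 40.4 to 62.0). On the log2 scale the change was 5.65 ± 0.15 (SE), with an edgeR adjusted p of 1.76e-18. This was the 243rd highest log2 fold change of the 18266 tested genes. The gene (ENSMUSG00000022218, chromosome 14, 55700009 to 55713926, minus strand, GRCm38) shares 182 exonic bases, 5.76% of its exonic length, with the antisense gene Gm49067, which had 20 counts summed over control and 18 over Klf4 libraries.

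Tgm2 encodes tissue transglutaminase, which also binds GTP and fibronectin and is the autoantigen of coeliac disease. It had 81, 98, 56 and 61 counts in control replicates and 1163, 1034, 1638 and 1890 counts in Klf4 replicates. This was 1.72, 2.01, 1.14 and 1.26 CPM in control and 22.5, 22.8, 31.1 and 35.8 CPM in Klf4 libraries. Batch 2 was the lower in control and the higher after Klf4. The means were 1.53 ± 0.407 and 28.1 ± 6.53 CPM (SD, n = 4), an 18.1-fold rise (95% interval 14.9 to 22). The log2 fold change of 4.18 ± 0.14 (SE) was the 411th from the top (edgeR adjusted p 7.87e-17). Tgm2 (ENSMUSG00000037820, chromosome 2, 158116402 to 158146436, minus strand) shares 370 exonic bases with Rprd1b on the other strand and 633 with Gm20412. The strand setting of the counting is not given in the sources used here. Rprd1b, an RNA polymerase II regulator gene, was at 60.9 ± 3.77 CPM in control and 56.0 ± 1.57 CPM in Klf4 libraries (SD, n = 4), with a log2 fold change of -0.12, and Gm20412 had 3 and 16 counts summed over the groups.

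Tgm5 encodes an epidermal transglutaminase whose loss in people causes skin to peel at the hands and feet. It had 131, 156, 102 and 105 counts in control replicates and 338, 276, 365 and 342 counts in Klf4 replicates. The levels were 2.78, 3.20, 2.07 and 2.18 CPM in control and 6.54, 6.10, 6.94 and 6.48 CPM in Klf4 libraries. The highest control library was below the lowest Klf4 library, and within control batch 1 was the higher. The means of 2.56 ± 0.534 and 6.52 ± 0.345 CPM (SD, n = 4) corresponded to a 2.56-fold rise (95% interval 2.17 to 3.03), or 1.36 ± 0.12 on the log2 scale (SE, edgeR adjusted p 2.37e-09). Tgm5 (ENSMUSG00000053675, chromosome 2, 121046111 to 121085841, minus strand) shares no exonic base with another annotated gene.

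F13a1 had 1794, 2026, 1326 and 1228 counts in control replicates and 1835, 1444, 1367 and 1352 counts in Klf4 replicates. Its levels were 38.1, 41.6, 26.9 and 25.4 CPM in control and 35.5, 31.9, 26.0 and 25.6 CPM in Klf4 libraries. The groups overlapped, and in both groups the batch 2 libraries were below those of batch 1. The means were 33.0 ± 8.06 and 29.8 ± 4.79 CPM (SD, n = 4). The decrease was small (log2 fold change -0.14, 95% interval -0.24 to -0.03, edgeR adjusted p 0.0485). The call was lost with the replicate number as a block (adjusted p 0.0783), without a batch term (0.57) and by the DESeq2 Wald test (0.0572). It was also lost without control replicate 2 (edgeR adjusted p 0.129), Klf4 replicate 1 (0.0669) or Klf4 replicate 2 (0.204), with scaling factors from abundant genes (0.175) and with a filter at 1 CPM in 4 libraries (0.0764). Between batches F13a1 differed by more: batch 2 was below batch 1 by a log2 difference of -0.50 (SE 0.05, edgeR adjusted p 3.95e-07 in the same fit), where 25.1% of tested genes were called for batch. F13a1 (ENSMUSG00000039109, chromosome 13, 36867178 to 37050244, minus strand) shares 74 exonic bases with the antisense gene Gm30489, which had 3 counts in all.

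F13a1 is known from macrophages and platelets, so markers of these cells were read beside it. Of 10 macrophage markers 4 were tested and none was called by edgeR. In alternatives, 1 was called without control replicate 2, without Klf4 replicate 2 or with no filter on low counts. The list summed to 38.7 to 44.9 CPM in control and 36.7 to 43.7 CPM in Klf4 libraries. Most of that came from C1qa (up to 1850 counts in a control library) and Cd68 (up to 300). Of the other markers, Adgre1 and Cd163 had no counts in control libraries, and C1qb and Cd14 had at most 3 there. Ptprc had at most 7 counts in a control library, Mrc1 9, Lyz2 20 and Csf1r 22. Of 7 megakaryocyte and platelet markers, Itga2b alone was tested and was not called. With no filter on low counts, 1 of this list was called. Pf4 had no count in any library, and the list summed to 5.45 to 7.08 CPM in control and 5.16 to 7.21 CPM in Klf4 libraries.

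Tgm3 encodes the epidermal and hair follicle enzyme that is activated by cleavage. It had 26, 34, 42 and 25 counts in control replicates and 37, 27, 23 and 21 counts in Klf4 replicates. The means were 0.655 ± 0.153 and 0.537 ± 0.147 CPM (SD, n = 4), with overlapping groups. The log2 fold change was -0.31 (95% interval -0.89 to 0.27, edgeR adjusted p 0.435), so that a fold between 0.541 and 1.21 was within the interval. Tgm3 (ENSMUSG00000027401, chromosome 2, 130012349 to 130050399, plus strand) shares no exonic base with another gene.

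Tgm4 encodes the prostate enzyme that clots seminal fluid in rodents. It had 15, 22, 9 and 17 counts in control replicates and 4, 8, 6 and 7 counts in Klf4 replicates. The control values of 0.183 to 0.452 CPM were all above the Klf4 values of 0.0774 to 0.177 CPM, though the nearest libraries were 0.183 and 0.177 CPM (two-sided exact permutation p = 0.0286, the smallest that 4 against 4 allows). The ratio of summed counts, 63 in control and 25 after Klf4, was 0.379 once scaled to the totals (exact 95% counting interval 0.229 to 0.611, covering counting error only). Of Tgm4's exonic length 18.2% is shared with Zdhhc3 on the other strand, a palmitoyltransferase gene at 73.4 ± 2.72 CPM in control and 76.9 ± 2.88 CPM in Klf4 libraries (SD, n = 4). How many Tgm4 counts came from that overlap was not tested.

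Tgm7, a little studied member, had 3, 6, 1 and 2 counts in control and 11, 15, 5 and 16 in Klf4 replicates, and Tgm6, known from neurons, had 6, 0, 0 and 2 in control and 7, 10, 4 and 11 in Klf4 replicates. In both genes the groups overlapped in at least 1 library. The scaled ratio of summed counts was 3.74 for Tgm7 (exact 95% counting interval 1.95 to 7.75) and 3.82 for Tgm6 (1.73 to 9.60). The exact permutation p was 0.0571 for each. A count of 0 allows a level of up to 0.0616 CPM in control replicate 2 and 0.0609 CPM in control replicate 3, at 3 counts. When every gene with a count was tested, edgeR called Tgm7 higher (adjusted p 0.0103) and Tgm4 lower (0.018) but not Tgm6 (0.0594), where 12.7% of 33674 genes were called higher and 9.15% lower. Tgm7 and Tgm4 also passed the filter and the test in some fits that left a library out. For Tgm7 this was any 1 of the control libraries or Klf4 replicate 3, and for Tgm4 control replicate 3 or Klf4 replicate 2, 3 or 4. Every control library of Tgm7 and every Klf4 library of Tgm4 was under the filter's minimum of 0.204 CPM. Each gene thus entered these fits only through the group where it was the higher, so that these calls add no support. Tgm4 (ENSMUSG00000025787) lies on chromosome 9 from 123034726 to 123067561, plus strand, Tgm6 (ENSMUSG00000027403) on chromosome 2 from 130112416 to 130154232, plus strand, and Tgm7 (ENSMUSG00000079103) on chromosome 2 from 121093565 to 121109795, minus strand.

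Levels of different genes were compared per kb of exonic sequence. In control cells the order was F13a1 (4.90 ± 1.20 CPM per kb), Tgm5 (0.811 ± 0.169), Tgm2 (0.333 ± 0.0882), Tgm3 (0.158 ± 0.0369), Tgm1 (0.0869 ± 0.034), Tgm4 (0.0716 ± 0.0244), Tgm7 (0.0289 ± 0.0206) and Tgm6 (0.0124 ± 0.0177; SD, n = 4). The first 5 in this order did not overlap in their ranges, whereas Tgm1 and Tgm4 differed by less than their SD, as did Tgm7 and Tgm6. In Klf4 cells the order was Tgm2 (6.09 ± 1.42 CPM per kb), F13a1 (4.42 ± 0.711), Tgm1 (4.38 ± 0.359), Tgm5 (2.07 ± 0.109), Tgm3 (0.13 ± 0.0355), Tgm7 (0.11 ± 0.0495), Tgm6 (0.0471 ± 0.0199) and Tgm4 (0.0275 ± 0.00907; SD, n = 4). There F13a1 and Tgm1 overlapped and differed by less than their SD. With the longest transcript as length they did not overlap, at 6.49 to 8.99 and 4.29 to 5.20 CPM per kb, and F13a1 in control was at 8.35 CPM per kb. Tgm3 and Tgm7 also differed by less than their SD, and the Tgm2 range of 4.88 to 7.78 CPM per kb overlapped with the F13a1 range of 3.8 to 5.27.

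The make-up of the family's transcripts differed accordingly between the groups. Per length, F13a1 held 75.1% to 77.6% of the 8 members' sum in control and 20.5% to 31.1% in Klf4 libraries. Tgm2 went from 4.73% to 5.46% in control to 28.8% to 42.0% in Klf4 libraries, and Tgm1 from 1.04% to 1.53% to 24.3% to 26.5%. The share of Tgm5 was 12.1% to 13.7% in control and 11.1% to 12.4% in Klf4 libraries, although its level rose. The summed level per length was 5.03 to 8.08 CPM per kb in control and 15.9 to 18.5 in Klf4 libraries, and for Tgm1 to Tgm7 without F13a1 it was 1.22 to 1.90 and 11.2 to 14.7. These sums follow from the members above and carry no test.

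**Figure D2:**
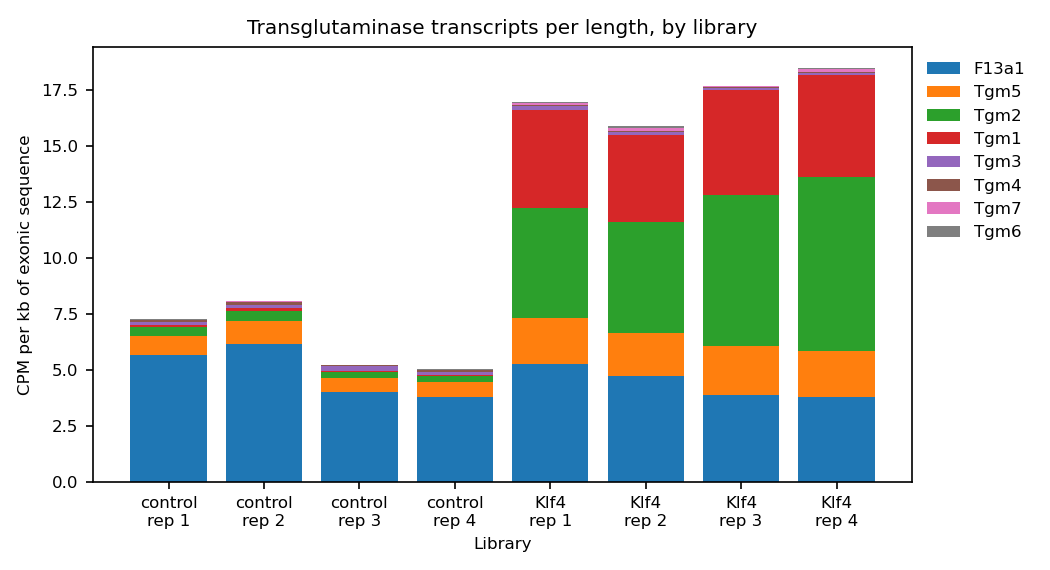
Stacked bars give each member's CPM per kb of exonic sequence (vertical axis) in the 8 libraries (horizontal axis, named by group and replicate). F13a1 makes up over 75% of each control bar, and Tgm2 and Tgm1 make up most of the added height in the Klf4 bars.

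The rise of the 3 called members was present within each batch. For Tgm1 the log2 fold change was 5.15 in batch 1 and 6.30 in batch 2, for Tgm2 3.59 and 4.81, and for Tgm5 1.07 and 1.67. Each of these 6 within-batch values passed edgeR's threshold in its own fit of 2 against 2 libraries, where 24.4% of tested genes were called in batch 1 and 29.8% in batch 2. All were larger in batch 2, and the difference between batches passed for Tgm2 alone (interaction 1.20 on the log2 scale, SE 0.20, edgeR adjusted p 0.00106), where 0.766% of tested genes were called. For Tgm1 it was 1.13 (SE 0.41, adjusted p 0.264) and for Tgm5 0.58 (SE 0.20, adjusted p 0.24). The log2 fold change of Klf4 was also larger in batch 2, 7.17 against 6.78 (interaction edgeR adjusted p 0.0057), and its part in the difference was not tested.

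The components of the Tgm2 difference lay on both sides. Mean control levels of Tgm2 were 1.87 CPM in batch 1 and 1.20 in batch 2, and mean Klf4 levels were 22.7 and 33.5 CPM. For Tgm1 the control means were 0.365 and 0.184 CPM and the Klf4 means 13.1 and 14.6 CPM. For Tgm5 they were 2.99 and 2.12 CPM in control and 6.32 and 6.71 CPM after Klf4, so that for these genes the control level was the lower in batch 2. F13a1 had log2 fold changes of -0.25 in batch 1 (edgeR adjusted p 0.00389) and -0.01 in batch 2 (0.95), and this difference did not pass (interaction adjusted p 0.357). Tgm3 had 0.07 and -0.70 (interaction adjusted p 0.665).

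**Figure D3:**
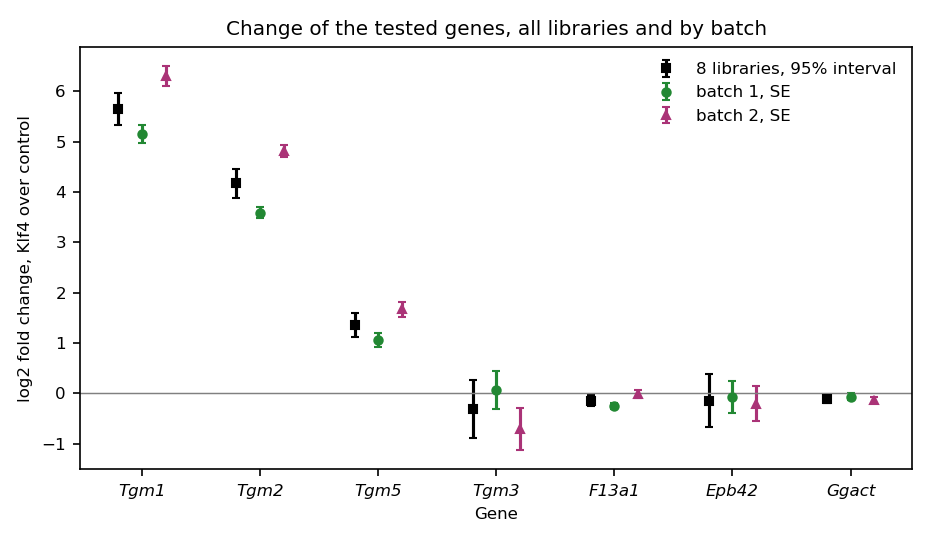
Log2 fold change of Klf4 over control (vertical axis) for the 5 tested members, Epb42 and Ggact (horizontal axis), from all 8 libraries with the 95% interval (squares) and within batch 1 (circles) and batch 2 (triangles) with the SE. Tgm1, Tgm2 and Tgm5 lie above 0 throughout with the larger value in batch 2, and the intervals of Tgm3 and Epb42 include 0.

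**Figure D4:**
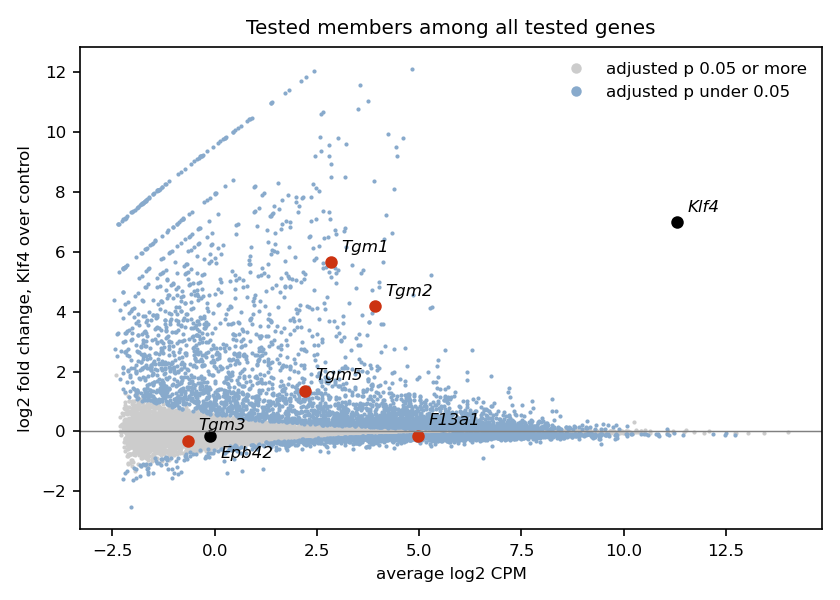
Log2 fold change of Klf4 over control (vertical axis) against average log2 CPM (horizontal axis) for the 18266 tested genes, grey where the adjusted p was 0.05 or more and blue where it was under 0.05, with the 5 tested members in red and Klf4 and Epb42 in black. Tgm1 (log2 fold change 5.65) and Tgm2 (4.18) are far above the bulk of genes of their level, and F13a1 (-0.14) lies next to the zero line.

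The nearest protein-coding genes that do not overlap each called member along the chromosome were examined. Tgm5 lies between Epb42, 9038 bases away, and Tgm7, 7723 bases away, on chromosome 2. Epb42 encodes erythrocyte protein 4.2, a relative of the family that has lost its catalytic activity. It was at 0.933 ± 0.336 CPM in control and 0.852 ± 0.153 CPM in Klf4 libraries (SD, n = 4; log2 fold change -0.14, 95% interval -0.66 to 0.39, edgeR adjusted p 0.728). Thus of the 3 adjacent genes Tgm5 rose, Epb42 did not pass the test and Tgm7 was too low for it. The neighbours of Tgm1 are Rabggta (log2 fold change 0.11, edgeR adjusted p 0.0672), 1489 bases away, and Tinf2 (-0.01, 0.867), 18188 bases away. Beyond the overlapping Rprd1b, those of Tgm2 are Tti1, 87968 bases away and called slightly lower (-0.13, edgeR adjusted p 0.0109, but 0.0711 without a batch term and 0.066 with factors from abundant genes), and D630003M21Rik, 36096 bases away (-0.18, 0.0563). Rabggta passed the threshold in 2 of 16 alternatives and D630003M21Rik in 3 of 16. Of the neighbours of F13a1, Ly86 had no counts in any library and Nrn1 had 4 counts in control and 22 in Klf4 libraries.

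The genes whose log2 CPM followed each called member most closely over the 8 libraries were found by Pearson's r among 14272 genes. For Tgm1 these were the S100 gene S100a14 (0.9997), the calpain gene Capn9 (0.9994) and the retinal reductase gene Dhrs3 (0.999). For Tgm2 they were Sidt2 (0.9989), the inositol trisphosphate receptor gene Itpr3 (0.9988) and Urah (0.9988). For Tgm5 they were Ecm1 (0.9979), the desmoplakin gene Dsp (0.9974) and the cation channel gene Trpm4 (0.9972). The coefficients are descriptions, since all points share the 2 groups and 2 batches, and 965 genes reached an r of 0.95 with Tgm1, 1029 with Tgm2 and 750 with Tgm5. For F13a1 the closest were Hist1h2bc (0.9928), Ppp1r9a (0.9912) and the clock gene Clock (0.9906), none of which was called for the plasmid, and 76 genes reached 0.95.

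The proteins that epidermal transglutaminases cross-link were followed next, as a list of 54 cornified envelope genes. Of these, 12 were tested and 10 rose, none fell, 2 were not called, and 42 fell below the filter, 32 of them with no count in any library. The median log2 fold change of the 12 was 1.83, against -0.014 over all tested genes, of which 21.1% were called higher. Krt14, Krt2, Cnfn and Sprr1a had under 10 counts in every control library and passed the filter only through the Klf4 libraries, so that their place among the genes that rose supports nothing. The other 8 had a median of 0.89, and 6 of them rose. Lor, among these 6, would not have passed the filter on its control libraries alone. It was at 0.191 and 0.203 CPM in control replicates 1 and 3, against a minimum of 0.204 CPM. Krt14, a basal keratin gene, had 1 count in all control libraries and 23.1 ± 6.12 CPM after Klf4 (SD, n = 4). Krt2, a suprabasal keratin gene, had no control counts and reached 2.81 ± 0.424 CPM (SD, n = 4). Its level was thus at least 45.3-fold higher than a floor of 3 counts per library. Other members, named after their values were seen, were already present in control: the plakin genes Evpl (27.8 to 76.7 CPM on average, log2 fold change 1.48), Ppl (46.7 to 80.5, 0.81) and Dsp (5.73 to 25.5, 2.18), and S100a10 (28.7 to 50.3, 0.82). The 2 not called, also named after their values were seen, were present in control too. Krt10 reached 206 counts in a control library and S100a11 621, with log2 fold changes of 0.13 and 0.1 (edgeR adjusted p 0.37 and 0.396). The loricrin gene Lor, at 0.248 ± 0.0719 CPM in control, rose to 1.27 ± 0.234 CPM (SD, n = 4), by 2.34 on the log2 scale (edgeR adjusted p 3.88e-07). Involucrin, Ivl, a main Tgm1 substrate, had no count in any library.

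Markers of keratinocytes were read beside these genes, from a list of 10 that shares 6 genes with the cornified envelope list. It summed to 4.04 to 4.48 CPM in control and 41.0 to 60.8 CPM in Klf4 libraries. Of its 6 tested genes 5 rose, against 21.1% of all tested genes called higher. Krt14, Krtdap, Dsg3 and Dsc3 had under 10 counts in every control library and passed the filter only through the Klf4 libraries. Lor, the other that rose, would not have passed on its control libraries alone, so that the count of genes that rose supports nothing. Krt14 and Krtdap (12.3 ± 2.70 CPM after Klf4, SD, n = 4) were the highest called by fold. The defining factor Trp63 had no count in any library, as had Ivl, Krt1 had at most 4 counts and Krt5 at most 13. The part of such cells in the results was not tested, and of the β-cell markers 5 of 10 were called lower, where 15.5% of all tested genes were, with a median log2 fold change of -0.07. Without a batch term 2 were called, and Mafa was not (edgeR adjusted p 0.365). The markers of largest decrease, Slc30a8 (-0.22) and Mafa (-0.18), were at 166.2 ± 6.2 and 569.6 ± 108.0 CPM in Klf4 libraries (SD, n = 4).

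Tgm2 acts at the cell surface with integrins, syndecan 4 and fibronectin, and a list of 22 of its partners and substrates was examined. Of the 21 tested, 14 rose, 1 fell and 6 were not called, with a median log2 fold change of 0.44. Among all tested genes 21.1% were called higher and 15.5% lower, with a median of -0.014. Itga5, Itgb3, Vim, Ltbp1 and Nid1 had under 10 counts in every control library and passed the filter only through the Klf4 libraries. The other 16 had a median of 0.19, with 9 higher and 1 lower. The integrin gene Itgb3 averaged 0.0669 ± 0.057 CPM in control and 2.61 ± 0.477 CPM after Klf4 (SD, n = 4), a rise of 5.23 ± 0.33 on the log2 scale (SE, edgeR adjusted p 8.91e-12). For the intermediate filament gene Vim the means were 0.114 ± 0.0282 and 2.57 ± 0.398 CPM and the rise 4.47 ± 0.24 (edgeR adjusted p 8.51e-13). The Wnt co-receptor gene Lrp6 was the 1 that fell, with means of 66.3 ± 3.70 and 58.9 ± 2.78 CPM (-0.17 ± 0.04 on the log2 scale, SE, edgeR adjusted p 0.00124). Named after their values were seen, the more abundant Lrp1 (log2 fold change 1.08), Sdc4 (1.00) and Mfge8 (2.19) also rose, and Itga5 reached 1.64 ± 0.257 CPM, at least 26.3-fold higher than the floor. Fibronectin, Fn1, had at most 10 counts in any library and was not tested.

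Tgm2 is abundant in fibroblasts and endothelium, so their markers were read beside it. Of 8 fibroblast markers 5 were tested and 4 rose, against 21.1% of all tested genes called higher. Dcn and Pdgfra, among these 4, had under 10 counts in every control library and passed the filter only through the Klf4 libraries. Of the other 3, Col1a1 and Thy1 rose and Col1a2 was not called (log2 fold change 0.09, edgeR adjusted p 0.734). Thy1 and Col1a2 were named after their values were seen. The list summed to 4.54 to 5.68 CPM in control and 23.8 to 30.7 CPM in Klf4 libraries. Dcn made up most of this, at 17.6 ± 3.82 CPM after Klf4 against 0.0461 ± 0.0449 CPM in control, and Col1a1 rose, with means of 1.91 ± 0.511 and 3.98 ± 0.489 CPM (SD, n = 4). Lum had no count in any library and Col3a1 at most 3. Of 6 endothelial markers 3 were tested and 1, Cdh5, was called higher, from no control counts to 14 to 28 counts per Klf4 library. Cdh5 too passed the filter only through the Klf4 libraries, so that its call supports nothing. Kdr had at most 2 counts, and the list summed to 4.15 to 4.48 CPM in control and 5.04 to 5.31 CPM in Klf4 libraries. The part of such cells in the Tgm2 result was not tested.

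**Figure D5:**
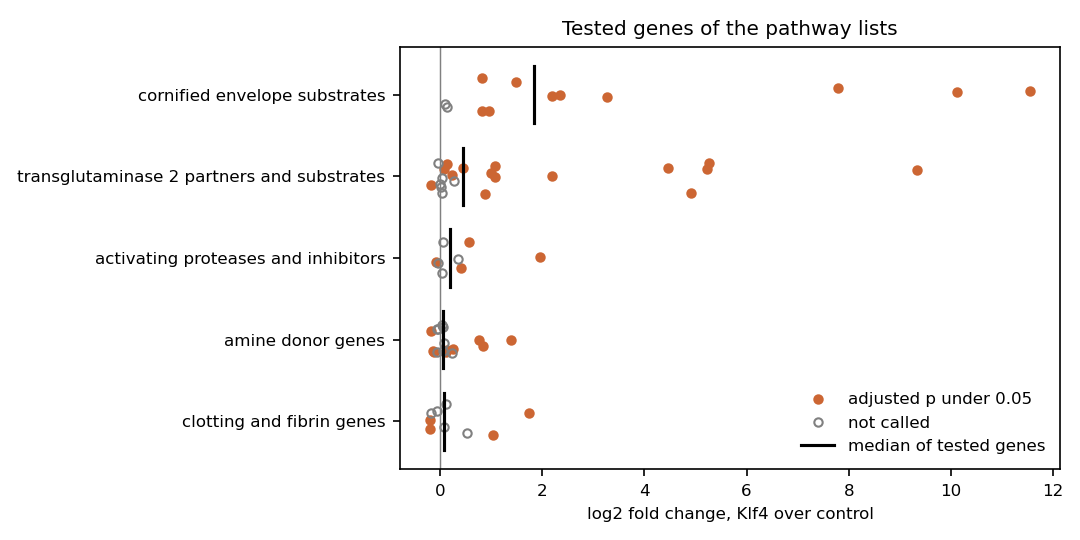
Log2 fold change of Klf4 over control (horizontal axis) of the tested genes in 5 lists (rows), filled where the edgeR adjusted p was under 0.05 and open otherwise, with a bar at each list's median; the values of Krt2, Cnfn and Itga5, which had no control counts, depend on the fit's prior count. The cornified envelope list has its median at 1.83 and the Tgm2 partner list at 0.44, and the medians of the other lists lie between 0.05 and 0.20. Both of the higher medians include genes under 10 counts in every control library, which passed the filter only through the Klf4 libraries. Without such genes the medians are 0.89 for the cornified envelope list and 0.19 for the Tgm2 partner list.

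Several transglutaminases are activated by cleavage or kept latent by low calcium. Of 10 genes for such proteases and their inhibitors, 8 were tested, 3 rose, 1 fell and 4 were not called (median log2 fold change 0.20). Among all tested genes 21.1% were called higher and 15.5% lower. The calpain genes Capn1 (8.16 ± 1.62 to 31.8 ± 3.66 CPM, log2 fold change 1.96, edgeR adjusted p 1.79e-13) and Capn2 (79.8 ± 6.18 to 117.1 ± 2.29 CPM, 0.56, adjusted p 1.10e-11) rose. Ctsd, for cathepsin D, which processes Tgm1, had a log2 fold change of 0.41 (chosen after its value was seen), and Ctsl, for cathepsin L, which processes Tgm3, fell by 0.08 on the log2 scale (edgeR adjusted p 0.0201). That decrease was lost in 3 of 16 alternatives.

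Polyamines, serotonin and histamine can take the place of lysine as amine donors. Of 18 genes that make, move or break down these amines, 17 were tested, 6 rose, 3 fell and 8 were not called, with a median log2 fold change of 0.05. Over all tested genes the shares were 21.1% higher and 15.5% lower. Those of largest change by the naming rule were Sat1, for polyamine acetylation (0.76, edgeR adjusted p 3.10e-08), and Paox (0.26, 0.00875) on the higher side, and Srm, for spermidine synthase (-0.17, 0.000161), and Oaz2 (-0.14, 0.00372) on the lower. Below an average log2 CPM of 0, Smox (1.38), a polyamine oxidase gene, and Oaz3 (0.84) also rose, from at most 19 counts per control library. Both were named after their values were seen. So was Odc1, for the first enzyme of polyamine synthesis. It was at 787.5 ± 71.7 CPM in control and 724.0 ± 73.8 CPM in Klf4 libraries (SD, n = 4; log2 fold change -0.12, edgeR adjusted p 0.000227, and 0.313 without a batch term). The call for Paox was lost without Klf4 replicate 4 (edgeR adjusted p 0.0592). Ggact, whose product clears the cross-linked remnant, was at 41.7 ± 2.71 and 38.8 ± 0.746 CPM (SD, n = 4) and did not pass (log2 fold change -0.10, adjusted p 0.0594). With Epb42 it made the list of 2 relatives and breakdown genes, of which neither was called, though Ggact passed in 4 of 16 alternatives.

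Factor XIII acts on fibrin once thrombin has cut both. Of 19 clotting genes 9 were tested, 2 rose, 2 fell and 5 were not called, with a median log2 fold change of 0.08. These counts are near the 21.1% higher and 15.5% lower of all tested genes, and 2 genes in all were called without a batch term or at 1 CPM in 4 libraries. The fibrinogen genes Fga, Fgb and Fgg had at most 5 counts in any library, and F13b, for the carrier subunit of factor XIII, had at most 6. Named after their values were seen, F2, for prothrombin, was at 0.435 ± 0.20 CPM in control and 0.893 ± 0.212 CPM in Klf4 libraries, and Serpinf2, for the antiplasmin that factor XIII ties to fibrin, at 0.347 ± 0.143 and 1.17 ± 0.177 CPM (SD, n = 4; edgeR adjusted p 0.0103 and 4.16e-05). These were the 2 that rose, and neither would have passed the filter on its control libraries alone. F2 was at 0.203 CPM in control replicate 3 and Serpinf2 at 0.145 CPM in control replicate 4, against a minimum of 0.204 CPM. The thrombin receptor gene F2r (log2 fold change -0.20) and F8 (-0.19) were the 2 that fell, by edgeR adjusted p of 0.008 and 0.0324, and the call for F8 was lost in 5 of 16 alternatives. That for F2r was lost without a batch term (edgeR adjusted p 0.182), and that for F2 without control replicate 3 (0.0539) or Klf4 replicate 3 (0.055).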

How the data were processed

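The deposited values were whole-number read counts per gene, 1 column per library, not normalised. Per the submitters' processing notes, FastQC, STAR, featureCounts and edgeR were used with the mm10 build. Versions, annotation and strand setting are not given in the sources used here. All 55536 identifier and symbol pairs matched GENCODE M21 (GRCm38), which gave coordinates, overlaps and exonic lengths.

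Counts were analysed in edgeR 4.0.16 (R 4.3.3): filterByExpr (minimum count 10), TMM factors of 0.996 to 1.01, a model with batch and plasmid, and the quasi-likelihood test with Benjamini-Hochberg adjustment over 18266 genes. Summed list levels used plain totals. SEs and intervals were derived from the F statistic. Alternatives used DESeq2 1.42.0 and limma 3.58.1. Permutation tests (70 relabellings) used Python 3.11.15. On simulated counts with 18023 genes, 97% of changes of 0.5 on the log2 scale were recovered. The spread in that simulation was assumed, not fitted to these libraries. Changes were placed only in genes of a higher level than Tgm3 or Epb42, so that recovery at their level was not tested.

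Libraries of 1 group differed by more than sampling noise (chi-square per degree of freedom 4.23 to 23.3). Same-numbered libraries correlated at 0.45 to 0.60 in their deviations, and differently numbered libraries within a batch at 0.44 to 0.56, so the pairing is that of the labelled batches.

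The members and lists were chosen with earlier results of these data known. Named genes, beside those said to be named after their values were seen, were the members, Epb42, Ggact and Klf4, per list the 2 called genes of largest change in each direction at an average log2 CPM of at least 0, neighbouring protein-coding genes, and the 3 genes of highest correlation per called member.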

Additional observations from a re-analysis of the deposited data

Results flagged for a closer look

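Between batches, the response of Tgm2 to the Klf4 plasmid differed, by 1.20 on the log2 scale in batch 2 over batch 1 (edgeR interaction test, adjusted p 0.00106), and for Klf4 itself by 0.37 (0.0057). Among the other genes named here the same test gave a larger rise in batch 2 for Capn1 (0.78, adjusted p 0.000154), Dsp (0.78, 0.00116), Mfge8 (0.68, 0.0392), Itpr3 (0.57, 1.34e-05) and Ecm1 (0.50, 0.0348). It did so as well for Sat1 (0.48, 0.029), Evpl (0.45, 0.00107), S100a10 (0.35, 0.0281) and Sidt2 (0.30, 0.00648). Mafa had an interaction of -0.25 (0.00817), a larger decrease in batch 2. In all, 140 genes passed this test, 124 of them with a positive term.

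Of 136 groups of 4 values examined, 7 held a library far from the other 3, where chance gives about 6.8. Klf4 replicate 2 had 45417853 total counts, against 51891997 to 52731176 in the other Klf4 libraries, and 63.1 CPM of Lrp6 against 57.0 to 58.0 CPM. The others were control libraries with counts of a gene that the remaining control libraries lacked: Nrn1 at 0.0829 CPM and Krt14 at 0.0207 CPM in replicate 4, and Gm20412 at 0.0637 CPM, Gm30489 at 0.0637 CPM and Krtdap at 0.0212 CPM in replicate 1.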

How the results depend on the processing

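Tgm1, Tgm2 and Tgm5 were called higher under all 16 alternatives run, with log2 fold changes of 5.44 to 5.87, 3.97 to 4.40 and 1.26 to 1.46. The number of members called was 4, and 3 to 6 when a library was left out. It was 3 with the replicate block, without a batch term, by the DESeq2 Wald test, with scaling factors from abundant genes and at 1 CPM in 4 libraries, and 6 of 8 with no filter. F13a1 lost its call in 8 of 16 alternatives, and the replicate block changed no other member's call. Over all genes 6684 were called, 6284 with the replicate block, 4116 without a batch term, and 5889 to 7074 when a library was left out. Below the threshold in every case, Epb42 changed sign when a control library was left out (-0.33 to 0.06 over all libraries left out), as did Tinf2 (0.02 with factors from abundant genes, 0.0 at 1 CPM in 4 libraries, -0.06 to 0.0 with a library left out). Of 983 recomputed log2 fold changes of 62 genes, 940 kept direction and call. With the longest transcript as length, Tgm4 lay above Tgm1 in control. With at most 22 counts per library, Tgm4, Tgm6 and Tgm7 are limited by depth.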
